A study of Mus musculus with 4 samples.

Results

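The genes described here are 10 members of the Notch pathway: the receptors Notch1, Notch2, Notch3 and Notch4, the ligands Jag1 and Dll1, and the target genes Hes1, Hey1, Hey2 and Heyl. They were taken as the probes whose gene name on the arrays was one of these symbols. This gave 13 probes for 10 of the 16543 genes measured, and the rule uses no measured value. Notch1, Notch2 and Dll1 had 2 probes each.

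Notch receptors are cell surface proteins that are cut when a ligand of the Jagged or Delta type on a neighbouring cell binds them. The freed intracellular domain enters the nucleus and joins the DNA-binding protein RBPJ and a Mastermind protein on target genes, among which the Hes and Hey families of transcriptional repressors are the best known. In the heart and its vessels the pathway is known for its part in endothelial identity, in smooth muscle and pericyte maturation and in the fate of mesenchymal progenitors.

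Cardiac mesenchymal progenitors (CMPs) are Sca-1-positive cells from the atria of adult wild-type C57BL/6 mice, grown in culture. The untreated CMP control, labelled day 0, was compared with CMPs carrying Sendai virus vectors for Oct4, Sox2, Klf4 and c-Myc (OSKM-CMPs) at days 4, 6 and 8. RNA of each condition was hybridised to 1 single-colour Agilent array, so no difference between conditions could be tested, and values are given with the error within an array (±, 1 SD of the scanner software's error model). Virus, factors, culture medium and time changed together after day 0 and cannot be told apart, and no array of virus without the factors was used here.

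A level is the log2 of the background-subtracted Cy3 signal relative to the 75th percentile of its array, and a change is the difference of 2 such levels, called when it reached 2-fold (1 on the log2 scale). Between 56.6% and 59.6% of the 55681 probes on an array were well above background, and no spot was saturated. For a probe not well above background on 1 of the arrays compared, the change is given as a bound ("at least"). It uses the lowest level well above background on that array. Where the dim reading lay above that level, a plain ratio is given. Counts take such values as read. All 10 mesenchymal progenitor markers listed were well above background on every array, with a summed signal of between 1228 and 1486 times the 75th percentile, a sum that follows the brightest genes. At day 8, 2 of the markers were past 2-fold higher, Ly6a, which encodes Sca-1 (2.69 ± 0.20), and Nt5e (2.10 ± 0.21), and 3 were lower, Tcf21 (-4.65 ± 0.21), Thy1 (-1.78 ± 0.20) and Eng (-1.19 ± 0.20). Among all genes, 14.4% rose and 11.6% fell past 2-fold at day 8. In bulk RNA, fewer cells of a type and less RNA per cell cannot be told apart.

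Of the 10 genes, 8 fell at least 2-fold between the control and day 4, 7 at day 6 and 7 at day 8, and 0 rose on any of these days. Over all genes, 9.59% fell and 12% rose at day 4, 11.5% fell and 13% rose at day 6, and 11.6% fell and 14.4% rose at day 8. On days 4, 6 and 8, the median change of the 10 genes was -2.63, -2.27 and -2.00, and that of all genes was -0.01, -0.04 and -0.03. These comparisons share the control array. The 4 targets fell on all 3 days, Notch3, Notch4 and Jag1 fell on all 3 days, and Notch1 passed the threshold at day 4 alone. The levels were highest on the control array for 8 of the 10 genes, all but Notch2 and Dll1. They were lowest at day 4 for 9 genes, with reservations. Notch3 and Hey1 changed from day 4 to day 6 and to day 8 by less than the error. The lowest and highest levels of Notch2, as the mean of its probes, differed by no more than 0.20 ± 0.16. Hey2 was not well above background at either day 4 or day 6. Dll1 is counted by the mean of probes that disagree, of which the RefSeq probe was lowest on the control array.

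**Figure D1:**
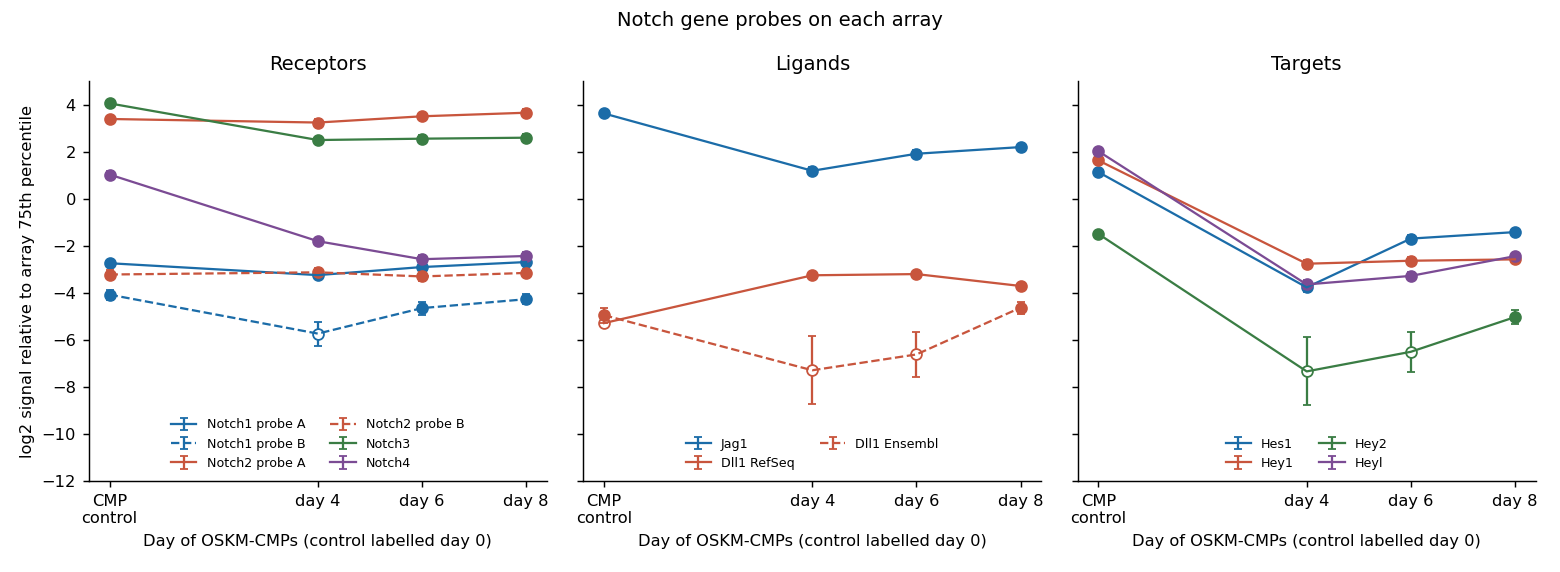
Level of each probe of the receptors, ligands and targets (y axis, log2 signal relative to the array's 75th percentile) on the CMP control array and at days 4, 6 and 8 of OSKM-CMPs (x axis). Points are single arrays, bars are 1 SD of the error model and open points were not well above background; each line is to be read along itself, since probes differ in brightness. All 4 target lines drop between the control and day 4, and the Hes1 line turns up again at day 6.

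Notch3 was measured by 1 probe (mm9, chr17:32257848-32257907, minus strand). This receptor is known from vascular smooth muscle cells and pericytes. It read a signal of 6451 in the control, and 2189, 2382 and 2479 over days 4, 6 and 8. The OSKM-CMP arrays lay close together, all below the control. Its change against the control was -1.56 ± 0.20 (2.94-fold) at day 4 and -1.46 ± 0.20 (2.75-fold) at day 8, with 2.83-fold between them at day 6. The change from day 4 to day 8 was 0.10 ± 0.20, within the error.

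Notch4, a receptor best known from endothelial cells, had 1 probe (mm9, chr17:34725120-34725179, plus strand). The signal of 794 in the control became 111, 68.5 and 76.2 over days 4, 6 and 8. It was the only gene of the 10 whose lowest level came at day 6, though the change from day 6 to day 8 was 0.14 ± 0.22, within the error. Its change against the control was -2.83 ± 0.21 (7.11-fold), -3.60 ± 0.22 (12.1-fold) and -3.46 ± 0.21 (11.0-fold) on these days. The step from day 4 to day 6 was -0.77 ± 0.22.

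Notch2, a widely expressed receptor, was level across the arrays. Its brighter probe (mm9, chr3:97953914-97953973, plus strand) gave signals of 4077, 3664, 4605 and 5172 on the control, day 4, day 6 and day 8 arrays. The other (chr3:97951233-97951292) gave 41.9, 44.6, 41.3 and 46.3 in the same order. Neither probe reached a 2-fold difference between any pair of arrays, and the gene's change at day 8 was 0.17 ± 0.16. The mean of the 2 probes had a range of 0.20 over the 4 arrays, at percentile 6.72 of the ranges of all genes. The brighter probe alone rose by 0.42 ± 0.20 from day 4 to day 8.

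Notch1, the receptor most studied in development and blood, was dim on all arrays. The first probe (mm9, chr2:26319440-26319499, minus strand) gave a signal of 58.4 in the control, and 41.0, 54.4 and 63.7 over days 4, 6 and 8. The second (chr2:26314630-26314689) gave 23.1, 7.33, 16.2 and 21.3, with the day 4 value not well above background. Both probes dipped at day 4, by 0.50 ± 0.23 for the first, which did not reach 2-fold, and at least 2.15-fold for the second. The mean of the probes fell by 1.08 ± 0.30 at day 4, just past the threshold, and the change at day 8 was -0.07 ± 0.19.

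Of the ligands, Jag1, which acts in vessel walls and in cell fate choice, followed the receptors that fell. Its probe (mm9, chr2:136907433-136907492, minus strand) read 4795 in the control, and 885, 1529 and 1880 over days 4, 6 and 8. All OSKM-CMP arrays lay below the control, with the lowest value at day 4. Against the control, the change of Jag1 was -2.43 ± 0.20 (5.41-fold), -1.71 ± 0.20 (3.27-fold) and -1.43 ± 0.20 (2.69-fold). From day 4 to day 8 it rose by 1.01 ± 0.20, still below the control.

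The Delta-type ligand Dll1 had 2 probes that went in different directions. The probe of its RefSeq transcript (mm9, chr17:15504623-15504682, minus strand) was printed as 10 spots on each array. On the control array these spots ranged from 4.66 to 14.7 with a median of 11.4, and 3 of the 10 were well above background. At day 4 they ranged from 37.6 to 48.3 (median 39.7), at day 6 from 38.6 to 52.8 (median 43.3) and at day 8 from 23.8 to 35.6 (median 31.8), all of them well above background. The spots of the OSKM-CMP arrays did not overlap those of the control array, but spots of 1 array share their RNA and are not replicates of a condition. By this probe Dll1 read 4.09-fold higher than in the control at day 4, 4.23-fold at day 6 and 2.98-fold at day 8. These are plain ratios to a control mean that was not well above background, and they are not lower bounds.

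The probe of an Ensembl transcript of Dll1 (mm9, chr17:15513726-15513785, minus strand) gave a signal of 12.6 on the control array and 16.6 at day 8. At days 4 and 6 it read 2.49 and 4.15, not well above background, which is at least 1.18-fold and at least 1.55-fold lower than the control. Its change at day 8 was 0.32 ± 0.41. The mean of the 2 probes, -0.15 ± 0.75 at day 4 and 0.95 ± 0.22 at day 8, therefore describes neither, and the count of 0 genes that rose holds for this mean only. With the RefSeq probes alone Dll1 was past 2-fold higher on all 3 days.

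**Figure D2:**
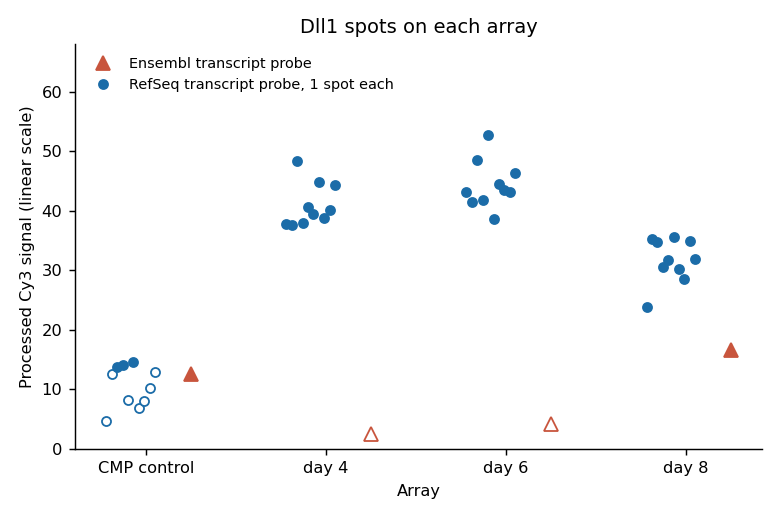
Processed Cy3 signal (y axis, linear) of the Dll1 spots on each of the 4 arrays (x axis). Circles are the 10 spots of the RefSeq transcript probe and triangles the single spot of the Ensembl transcript probe, and open symbols were not well above background. Every circle of days 4, 6 and 8 lies above every circle of the control array, while the triangles are lowest at days 4 and 6.

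The 4 targets had the widest ranges among the 10 genes, and their median change was -5.28, -4.63 and -3.87 over days 4, 6 and 8. The range over the 4 arrays was at percentile 99.3 of all genes for Hey2, 99.2 for Heyl, 98.6 for Hes1 and 97.9 for Hey1. The medians at days 4 and 6 and the range of Hey2 use its readings on these days, which were not well above background. The place of Hey2 above the other targets in range is therefore not settled. Heyl, a Hey family repressor known from smooth muscle, had 1 probe (mm9, chr4:122926975-122927034, plus strand) with a signal of 1576 in the control, and 31.2, 41.9 and 75.8 over days 4, 6 and 8. These arrays all lay far below the control, and the change was -5.66 ± 0.24 (50.5-fold), -5.29 ± 0.23 (39.2-fold) and -4.46 ± 0.21 (21.9-fold) in turn. Between day 4 and day 8 it came back by 1.20 ± 0.25.

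Hey1, a repressor that acts in endothelial and cardiac development, was low by day 4 and stayed low. Its probe (mm9, chr3:8663432-8663491, minus strand) read 1203 in the control, and 57.4, 65.5 and 69.0 over days 4, 6 and 8. The OSKM-CMP arrays were close to one another, with a change of -4.39 ± 0.22 (20.9-fold) at day 4 and of -4.20 ± 0.21 (18.4-fold) at day 8. The change from day 4 to day 8 was 0.19 ± 0.23, within the error.

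Hes1, the target that also cycles in many progenitor cells, fell steeply by day 4 and then returned in part. Its probe (mm9, chr16:30067820-30067879, plus strand) read 853 in the control, and 28.6, 126 and 154 over days 4, 6 and 8. Its change against the control was -4.89 ± 0.26 (29.7-fold), -2.82 ± 0.21 (7.08-fold) and -2.55 ± 0.21 (5.85-fold) in turn. The step from day 4 to day 6 was a rise of 2.07 ± 0.26, and from day 6 to day 8 the change was 0.28 ± 0.21.

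Hey2, a repressor of the cardiac and arterial lineages, was not well above background on part of the arrays (mm9, chr10:30552729-30552788, minus strand). It read 138 in the control, 2.41 and 4.49 at days 4 and 6, where it was not well above background, and 12.6 at day 8. Hey2 was at least 12.8-fold lower than the control at day 4 and at least 16.9-fold lower at day 6. These bounds follow the lowest level well above background on each array, so they do not order the 2 days. At day 8 Hey2 fell by 3.53 ± 0.34 (11.6-fold). The bound from day 4 to day 8 was at least 1.11-fold higher.

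The promoters of 7 of the 10 genes were in the RefSeq table of assembly GRCm38.p6, as 8 windows from 250 bases before to 50 bases after a transcript start. The targets Hes1, Hey1 and Heyl had no window there, so Hey2 was the only target searched. The 8 windows were searched on both strands for the letters of the RBPJ binding site, in 3 nested forms. TGGGAA was in 25.6% of all 32851 promoters, GTGGGAA in 6.38% and CGTGGGAA in 0.734%. Among the 8 windows, that of Hey2 held them and the others held none of these letters. The Hey2 window held the longest form at 2 places, 207 bases before the start on the reverse strand and 5 bases before it on the forward strand, which 4 of the 32851 promoters did. Of 58 windows of other pathway genes listed below, 1 held the longest form, that of Lfng, a glycosyltransferase that acts on Notch receptors. The sequences of Hey2 and Lfng are shown for these matches and those of Notch3 and Jag1 as genes that fell without one, each 5′ to 3′ on the gene's strand with every match in capitals.

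Hey2 (chr10:30842734-30843033, - strand): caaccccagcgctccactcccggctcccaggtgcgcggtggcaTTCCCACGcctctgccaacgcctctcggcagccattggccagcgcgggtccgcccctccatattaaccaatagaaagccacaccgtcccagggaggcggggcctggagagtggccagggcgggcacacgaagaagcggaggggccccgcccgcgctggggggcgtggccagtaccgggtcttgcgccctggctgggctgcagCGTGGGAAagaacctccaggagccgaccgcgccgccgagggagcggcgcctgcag
Lfng (chr5:140607091-140607390, + strand): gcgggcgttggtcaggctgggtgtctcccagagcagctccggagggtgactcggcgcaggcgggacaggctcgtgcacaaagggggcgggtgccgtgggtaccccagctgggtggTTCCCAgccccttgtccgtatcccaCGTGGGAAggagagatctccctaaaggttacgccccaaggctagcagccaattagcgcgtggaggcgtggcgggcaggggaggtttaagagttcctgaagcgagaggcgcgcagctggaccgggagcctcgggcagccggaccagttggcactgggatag
Notch3 (chr17:32166841-32167140, - strand): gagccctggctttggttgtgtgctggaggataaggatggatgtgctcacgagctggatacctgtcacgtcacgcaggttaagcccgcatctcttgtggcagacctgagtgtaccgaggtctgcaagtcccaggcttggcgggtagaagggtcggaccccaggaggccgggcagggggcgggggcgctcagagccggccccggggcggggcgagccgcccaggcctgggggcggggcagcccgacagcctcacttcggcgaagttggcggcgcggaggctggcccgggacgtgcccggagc
Jag1 (chr2:137116471-137116770, - strand): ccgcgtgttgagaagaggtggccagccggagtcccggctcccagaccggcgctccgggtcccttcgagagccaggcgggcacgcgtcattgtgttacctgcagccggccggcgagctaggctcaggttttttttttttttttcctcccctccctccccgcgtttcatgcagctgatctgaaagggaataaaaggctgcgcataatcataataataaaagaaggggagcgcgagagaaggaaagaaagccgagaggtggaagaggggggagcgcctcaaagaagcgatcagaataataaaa

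A match is a description of the letters. Hey2, with 2 matches, was at least 12.8-fold lower at day 4, while Lfng, with signals of 13.4, 28.4, 15.6 and 22.3 over the control, day 4, day 6 and day 8 arrays, changed by 1.09 ± 0.34 at day 4 and 0.66 ± 0.35 at day 8. Notch3 and Jag1 fell with no match in this window.

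**Figure D3:**
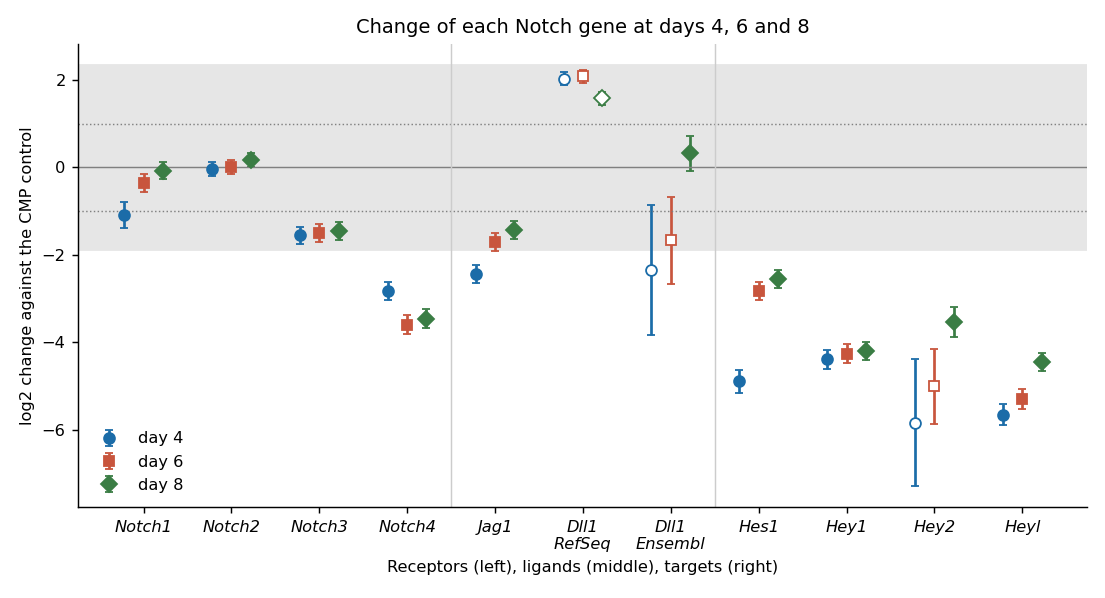
log2 change of each gene against the CMP control (y axis) at days 4, 6 and 8, with receptors on the left, ligands in the middle and targets on the right (x axis). Bars are 1 SD of the error model, open symbols had 1 array not well above background, dotted lines mark 2-fold and the grey band holds the middle 90% of all genes at day 8, from -1.89 to 2.34. Dll1 is drawn by probe. Notch1 is drawn filled at day 4, though 1 of its probes was not well above background there. The targets and Notch4 lie below the band on all 3 days.

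Between the OSKM-CMP arrays themselves, changes of 2-fold were rarer over all genes. From day 4 to day 6, 1 of the 10 genes rose past 2-fold (Hes1) and 0 fell, where 2.84% of all genes rose and 2.65% fell. From day 6 to day 8, 1 rose (Hey2, from a value not well above background) and 0 fell, where 2.45% rose and 1% fell. From day 4 to day 8, 6 rose and 0 fell, where 4.94% of all genes rose and 4.09% fell. Of these 6, Hes1 (2.35 ± 0.26), Heyl (1.20 ± 0.25) and Jag1 (1.01 ± 0.20) were well above background on both arrays. Notch1, Dll1 and Hey2 passed only through a probe that was not well above background at day 4, and the RefSeq probe of Dll1 moved the other way, by -0.45 ± 0.08. Notch4 was the gene whose level was lower at day 8 than at day 4, by -0.63 ± 0.22.

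Other genes of the pathway went in both directions. Of 56 listed, 54 were measured; 7 rose and 7 fell past 2-fold at day 4, 4 rose and 5 fell at day 6, and 5 rose (9.26%) and 6 fell (11.1%) at day 8, where 14.4% and 11.6% of all genes did. Their median change was -0.02, 0.01 and 0.07 on the 3 days. All 9 measured genes of receptor processing, the proteases and gamma-secretase subunits that cut Notch, stayed within 2-fold on all 3 days. Among them, the sheddases Adam10 and Adam17 changed by -0.17 ± 0.20 and 0.44 ± 0.15 at day 8. Rbpj, the DNA-binding partner of Notch, changed by 0.59 ± 0.14 at day 4 and 0.43 ± 0.14 at day 8. Of 13 genes of the nuclear complex and its corepressors, Maml3, a Mastermind coactivator, was alone past 2-fold at day 8, with a rise of 1.34 ± 0.17.

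Dlk1, a Delta-like protein and inhibitor of preadipocyte differentiation, rose most among the listed genes. Its signal of 94.2 in the control became 12335, 13596 and 9555 over days 4, 6 and 8, a rise of 7.04 ± 0.16, 7.11 ± 0.16 and 6.59 ± 0.16. Mfng, a glycosyltransferase of the Fringe family that modifies Notch receptors, rose late, with signals of 31.6, 41.7, 61.2 and 280 and a rise of 3.07 ± 0.17 at day 8. Dtx1, a Deltex ubiquitin ligase, rose by 1.72 ± 0.27 at day 4 and 3.20 ± 0.26 at day 8, while its relative Dtx4 fell by 1.93 ± 0.20 at day 8. Jag2, a Jagged ligand, counted as past 2-fold at day 8, but it was not well above background on the control or day 8 arrays and has no fold.

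Of 10 further targets and Hes family genes measured, 4 fell past 2-fold at day 8 and 3 at day 6, and 0 rose on either day. Among all genes, 11.6% fell and 14.4% rose at day 8, and 11.5% fell and 13% rose at day 6. Nrarp, a target and feedback inhibitor of Notch, read 66.7 in the control and then 3.09, 3.30 and 4.05, not well above background, and was at least 6.20-fold, 8.16-fold and 6.79-fold lower. Bhlhe40, a repressor related to the Hes family, changed by -2.94 ± 0.20 at day 4 and by -2.64 ± 0.20 at day 8. The Id proteins Id3 and Id1, which also answer to BMP signalling, fell by 1.81 ± 0.20 and fell by 1.20 ± 0.20 at day 8, and Id1 was not past 2-fold at day 6 (-0.26 ± 0.20). The endothelial ligand Dll4 was dim on the control array (13.4) and at least 1.36-fold lower at day 8, and it counts among the 6 that fell only by its value as read, which was at the threshold. Other Hes genes did not follow: Hes6 changed by 0.57 ± 0.20 and Hes7 by -0.34 ± 0.20 at day 8. Hes5, not well above background in the control, read 1.48-fold higher at day 8, which is a plain ratio.

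Heyl had the widest range of those of the 10 genes that were well above background throughout. Over the 4 arrays, the genes with centred profiles nearest to that of Heyl were sought among 13666 genes. These were the other genes with every probe well above background on all 4 arrays, which leaves out Notch1, Dll1 and Hey2. The nearest were Ccn2 (a matricellular protein), Ptger4 (a receptor of prostaglandin E2), Smim41, Pf4 (a chemokine) and Aldh1a3 (a retinaldehyde dehydrogenase). Their root mean square differences were 0.39, 0.41, 0.44, 0.46 and 0.48 on the log2 scale. Ccn2 changed by -4.66 at day 4 and by -3.89 at day 8. Hey1 was at rank 12 with a difference of 0.53, Hes1 at rank 77 and Notch4 at rank 93. Jag1 was at rank 271, Notch3 at rank 494 and Notch2 at rank 7394. With 4 arrays, likeness of profile is a description.

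Markers of other cell types moved beside the Notch genes. Of 10 endothelial markers, 9 were measured. At day 8, 6 of them fell past 2-fold and 0 rose, where 11.6% of all genes fell and 14.4% rose. The summed signal of the markers was 2.22 times the 75th percentile on the control array and between 1.19 and 1.30 times on the OSKM-CMP arrays. The endothelial cadherin Cdh5 had a signal of 117 in the control and was at least 11.9-fold lower at day 8, and the angiopoietin receptor Tek fell by 2.70 ± 0.27. Cdh5, Emcn and Tie1 were not well above background on any OSKM-CMP array, and Cldn5 was not at days 6 and 8. The falls of these genes at day 8 are bounds, the smallest at least 2.06-fold for Tie1. Pecam1, Kdr and Vwf changed by 0.10 ± 0.16, -0.27 ± 0.11 and 0.78 ± 0.25. Vwf was dim in the control (14.7), with its probes between 0.11 and 1.46. The part of endothelial cells in the fall of Notch4, Hey1 and Hey2 was not tested.

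Of 11 smooth muscle and pericyte markers, 10 were measured. Their summed signal was 621 times the 75th percentile on the control array, most of it from Acta2 and Tagln. It was between 52.2 and 71.3 times on the OSKM-CMP arrays. At day 8, 4 of the markers fell and 3 rose past 2-fold, where 11.6% of all genes fell and 14.4% rose. The median change of the measured markers at day 8 was 0.10. The contractile genes Acta2 and Tagln fell by 5.09 ± 0.06 and fell by 4.78 ± 0.20, whereas the pericyte markers Rgs5, Abcc9 and Kcnj8 were higher, by 2.45 ± 0.20, at least 13.7-fold and at least 3.01-fold. Mcam, also a pericyte marker, fell by 2.38 ± 0.15, with its probes between -4.14 and -0.61, and Pdgfrb and Cspg4 changed by -0.36 ± 0.20 and 0.57 ± 0.20. Myh11, which defines mature smooth muscle, was not well above background on any of the 4 arrays. The part of these cells in the fall of Notch3, Jag1 and Heyl was not tested. The summed signal of the leukocyte markers was between 0.479 and 0.798 times the 75th percentile and that of cardiomyocyte markers between 4.11 and 11.9, while the 6 adipocyte markers rose from 4.99 in the control to 338 at day 8. The cardiomyocyte sum was almost all from Tnnt2, which fell by 1.60 ± 0.20 at day 8. Myl7 and Myh6, not well above background in the control, rose past 2-fold as read. The median change of the measured cardiomyocyte markers at day 8 was 0.91.

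**Figure D4:**
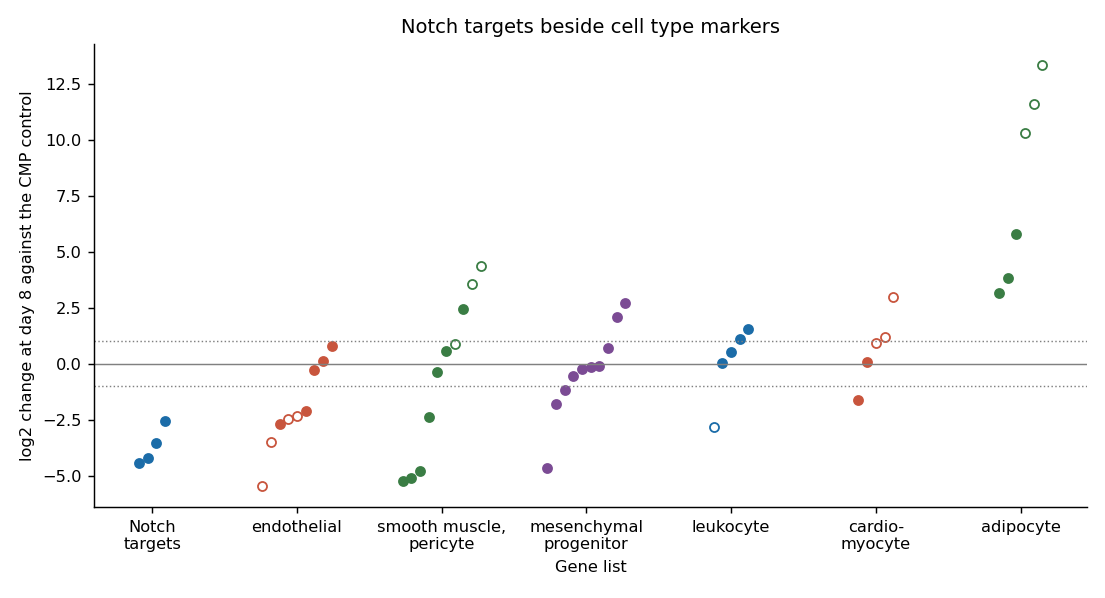
log2 change at day 8 against the CMP control (y axis) of the 4 Notch targets and of each measured marker of 6 cell type lists (x axis), with 1 point per gene. Open circles had a value not well above background on 1 or both arrays and dotted lines mark 2-fold. All 4 targets lie below -2.5, the endothelial and smooth muscle lists spread from below -5 to above 0, and all adipocyte markers lie above 2-fold.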

How the data were processed

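RNA of 4 samples, 1 per condition, was read on 1-colour Agilent arrays. The authors deposited Feature Extraction files (version 10.7.3.1 in the file headers, 9.5.3 in the submitters' processing notes) that hold a processed, background-subtracted Cy3 intensity for each spot. Their normalized table, made in GeneSpring, was deposited as log2 values; each array differed from the log2 processed intensity by a constant. The array data give no read depth, and the number of arrays limits the precision.

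Of 62976 spots, 3671 control spots and 87 to 106 outlier spots per array were left out. The log2 intensity was averaged over the spots of a probe and the array's 75th percentile was subtracted. Probes well above background (at least 0.5 of their spots) on 1 or more arrays were kept (35544). Names came from the arrays' gene names, matched to RefSeq symbols (GRCm38.p6, names only): 27730 probes by symbol, 3296 by synonym and 24655 without a match. Kept probes of the same gene were averaged, and a gene counted as well above background where any of them was. A bound sets the bright level against the lowest level well above background on the dim array. Where the dim probe's own level was higher, as for the RefSeq probe of Dll1 and Hes5 in the control, the value is a plain ratio. The lowest level is not a detection limit. Jag2 read 11.1 at day 6, not well above background, where that level was a signal of 8.53. It differs between arrays, so bounds do not order the days. Without replicates no test was made; the median SD between spots of a probe gave 0.091 for a difference of 2 arrays.

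All 10 genes are given, with the pathway genes past 2-fold at day 8 and the 5 genes nearest in profile; Lfng, Rbpj, genes near 2-fold or of the same family, and single markers were named after their values were seen. Counts of the pathway list cover all of its measured genes, also those not named, and a value is not reported here for every gene. The genes and lists were chosen with earlier results of these data known. Alternatives were the authors' values, the array median as the scale, quantile normalization with and without normexp (offset 50), other filters, a floor, the brightest probe, 1.5-fold and, chosen after seeing the data, RefSeq probes only. Tools were limma 3.58.1 in R 4.3.3 and pandas 2.3.3 in Python 3.11.15. The steps were tested on simulated data with changes set only in genes with a bright spot on the control array. That test did not cover changes at low signal, bounds or probes that disagree.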

Additional observations from a re-analysis of the deposited data

How the results depend on the processing

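No paired analysis was possible because no condition has a replicate. The counts of the 10 genes that fell, 8, 7 and 7 at days 4, 6 and 8, stayed within 1.5 times under all alternatives run. The count that rose was 0 on each day and became 1 with the brightest probe of a gene and 1 with RefSeq probes only, in both cases Dll1, and 1 at day 8 with a 1.5-fold threshold. Under normexp with quantile normalization the median change over days 4, 6 and 8 became -2.07, -1.67 and -1.45; the other alternatives moved it by less than 0.091. For the other pathway genes at day 8, normexp with quantile normalization gave 3 that rose in place of 5, and the 1.5-fold threshold gave 12 that fell in place of 6. Of 264 values of single genes under the alternatives, 232 moved by less than the gene's error, 32 by more and 0 of those past 2-fold changed sign; 10 of the 32 were of Dll1. The fall of Notch1 at day 4 lost the 2-fold threshold under normexp with quantile normalization (-0.30) and with its brighter probe alone (-0.50). Scaling by the array median moved the median of all genes by -0.14, -0.13 and -0.27 on these days, and this shift was taken out of the values above; before that, 40.0% of the calls over all genes at day 8 were rises, in place of 55.2%. The cause of these differences was not tested. Probes at low signal, those of Notch1, Dll1 and Hey2, are limited by the background.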
